A study of Mus musculus with 10 samples.

Results

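The mitosis genes described here are 44 genes whose products carry cells through mitosis, in mouse embryonic fibroblasts (MEF) with and without a conditional knockout of Dicer. Their levels were read from Affymetrix arrays, on which a probe set is a group of short probes for 1 transcript. Each gene was represented by its probe set with the highest mean over the 10 arrays, and was kept where at least 1 group of arrays had a mean log2 value of 4 or more. Of the 44 listed genes, 43 had a probe set with 1 gene symbol and all 43 passed that level, among 10632 genes tested in all. Ccnb1, the mitotic cyclin B1, had no probe set with 1 symbol and is not analysed here. The member nearest the threshold was Mybl2, with a highest group mean of 5.23, followed by Cdc25c at 6.37 and Nuf2 at 6.41. No member lay outside it. In all 5 groups, 40 members had a mean of 4 or more. Mybl2 reached 4 only in untreated wild-type cells, so its difference from that group follows in part from the threshold.

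The 10 arrays formed 5 groups of 2: untreated wild-type (WT) MEF, WT MEF given 4-hydroxytamoxifen (OHT) at 5 µM for 4 days, untreated conditional Dicer knockout (CDKO) MEF, and CDKO MEF given OHT at 1 µM or at 5 µM for 4 days. OHT is the ligand commonly used to activate a Cre recombinase fused to the oestrogen receptor. Which Cre the CDKO cells carry, whether the WT cells carry one, the mouse strain and the number of clones or embryos are not stated in these sources. All 5 groups were cultured MEF from which total RNA was taken. One label field calls every sample a conditional knockout, while the titles name 4 arrays WT, and the titles were followed. Nothing says that the paired arrays of each group represent independent cultures, so p-values measure the spread between arrays, which may be technical.

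Cells enter mitosis when cyclin-dependent kinase 1 (Cdk1) bound to cyclin A or B becomes active. The chromosomes are then condensed and attached through their kinetochores to a spindle built by microtubule motors. The spindle checkpoint holds the ubiquitin ligase APC/C back until every kinetochore is attached, after which the sister chromatids separate and the cytoplasm divides. Many of these genes are transcribed in a burst before mitosis. Their promoters often carry CCAAT boxes, bound by NF-Y, and a cell cycle genes homology region, bound by MuvB complexes: with p130 or p107 and E2F4 (the DREAM complex) these repress, and with B-Myb (Mybl2) and Foxm1 they activate. The summed RNA of these genes therefore follows how many cells in a culture are cycling, and in bulk RNA fewer mitotic cells and less RNA per cell cannot be told apart.

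Because the members moved together, the promoters of the 6 members with the largest differences between treated and untreated WT cells that passed the test and had a motif match are printed from RefSeq (build GRCm38.p6), each as the 200 bases before the start, 5′ to 3′ on the strand of the gene. They lie at chr1:189688087-189688286 (minus strand) for Cenpf, chr3:135212363-135212562 (plus strand) for Cenpe, chr7:135716380-135716579 (minus strand) for Mki67, chr19:37376182-37376381 (plus strand) for Kif11, chr4:117178773-117178972 (minus strand) for Kif2c and chr9:61946800-61946999 (minus strand) for Kif23. Capitals mark matches, on either strand, to the CCAAT box and to the TTTGAA and TTTAAA forms of the homology region. ATTGG and TTCAAA are CCAAT and TTTGAA read on the other strand, TTTAAA reads the same on both, and matches were counted separately even if they shared bases.
Cenpf: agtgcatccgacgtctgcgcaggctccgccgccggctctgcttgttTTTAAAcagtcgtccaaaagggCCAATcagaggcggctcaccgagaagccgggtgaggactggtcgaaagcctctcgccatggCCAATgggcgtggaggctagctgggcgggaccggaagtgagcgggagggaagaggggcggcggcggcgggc
Cenpe: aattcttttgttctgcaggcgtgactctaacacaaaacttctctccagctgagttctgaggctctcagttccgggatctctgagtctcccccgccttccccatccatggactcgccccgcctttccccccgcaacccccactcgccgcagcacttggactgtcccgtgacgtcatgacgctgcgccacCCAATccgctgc
Mki67: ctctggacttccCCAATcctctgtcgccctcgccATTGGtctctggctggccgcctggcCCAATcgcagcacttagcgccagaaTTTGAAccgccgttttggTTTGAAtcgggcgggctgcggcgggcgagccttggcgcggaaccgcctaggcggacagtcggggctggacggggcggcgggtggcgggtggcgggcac
Kif11: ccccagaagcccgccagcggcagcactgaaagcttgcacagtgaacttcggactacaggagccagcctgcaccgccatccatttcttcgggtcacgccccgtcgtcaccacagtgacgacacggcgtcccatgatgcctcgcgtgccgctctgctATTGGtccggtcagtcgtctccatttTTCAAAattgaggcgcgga
Kif2c: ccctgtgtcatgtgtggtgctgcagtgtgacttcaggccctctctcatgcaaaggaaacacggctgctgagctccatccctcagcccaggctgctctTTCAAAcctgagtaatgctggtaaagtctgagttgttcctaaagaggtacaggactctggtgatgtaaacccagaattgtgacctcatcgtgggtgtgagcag
Kif23: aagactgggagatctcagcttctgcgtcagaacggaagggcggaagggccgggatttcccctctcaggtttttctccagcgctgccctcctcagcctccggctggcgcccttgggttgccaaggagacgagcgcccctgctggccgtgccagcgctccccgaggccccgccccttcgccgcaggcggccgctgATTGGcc

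The Mki67 promoter held 3 CCAAT matches and 2 TTTGAA matches in those bases, and the Cenpf promoter held 2 CCAAT matches and 1 TTTAAA match. Kif11 had 1 CCAAT and 1 TTTGAA match, Cenpe and Kif23 had 1 CCAAT match each, and Kif2c had 1 TTTGAA match. RefSeq promoters of 300 bases (250 before the start and 50 after it) were matched for 37 of the 44 members. Ccna2, Cdc25c, Foxm1, Aurkb, Incenp, Tpx2 and Kif20a had no entry. A CCAAT match was present in 75.7% of the 37, against 41.1% of 27025 genes with a promoter of this length. At least 2 CCAAT matches were present in 56.8% of the members and 13.3% of all genes. TTTGAA was present in 70.3% against 20.2%, and TTTAAA in 27.0% against 14.9%. A CCAAT match together with TTTGAA or TTTAAA was found in 70.3% of the members and 12.2% of all genes. Within the tested members the median difference between treated and untreated WT cells, given below, was -2.11 in the 27 with a CCAAT match and -2.22 in the 9 without. With either form of the homology region it was -2.11 in 29 members, and with none -2.24 in 7. A match describes these letters and shows no binding.

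All values are log2 as deposited, where 1 unit is a doubling of signal. Between 41.8% and 43.2% of probe sets were at 4 or more on each array. The fibroblast markers summed to 16.7 to 17.7 on every array, with 11 or 12 of 12 at 4 or more and only Lum ever below. Both untreated WT arrays and replicate 2 of CDKO at 1 µM stood apart in their 18S ribosomal RNA control (10.2 to 11.6, against 5.21 to 8.44 elsewhere) and in the difference between the 3′ and 5′ Gapdh control probe sets (0.67 to 1.58, against -0.31 to 0.07 elsewhere). The spike-in controls fell into a higher class (11.0 to 11.7) that held all WT arrays and replicate 1 of untreated CDKO and of CDKO at 5 µM, and a lower class (9.65 to 10.2). Of other cell types, 4 of 5 epithelial markers (all but Epcam) and 6 of 8 skeletal muscle markers (all but Myod1 and Myog) reached 4 in untreated WT, against 2 of each elsewhere. Their sums were 10.4 to 10.5 and 9.99 to 10.2 there, against 7.04 to 9.08 and 7.21 to 9.85 in the other groups. The 15 macrophage and leukocyte markers summed to 10.9 to 13.3 in CDKO arrays and 13.4 to 14.0 in WT arrays, with Itgam and Aif1 below 4 throughout. The 6 endothelial markers summed to 5.47 to 6.83, with 5 below 4 everywhere. Dicer1 had 2 probe sets, and the sources used here do not say whether the deleted exons include them. One stood at 7.16 and 7.31 in untreated WT and at 5.49 to 6.55 on the other 8 arrays, and the other at 8.97 and 9.10 in untreated WT, 7.19 and 7.64 in WT at 5 µM and 5.40 to 8.30 in CDKO, so that neither gives a check of the deletion.

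**Figure D1:**
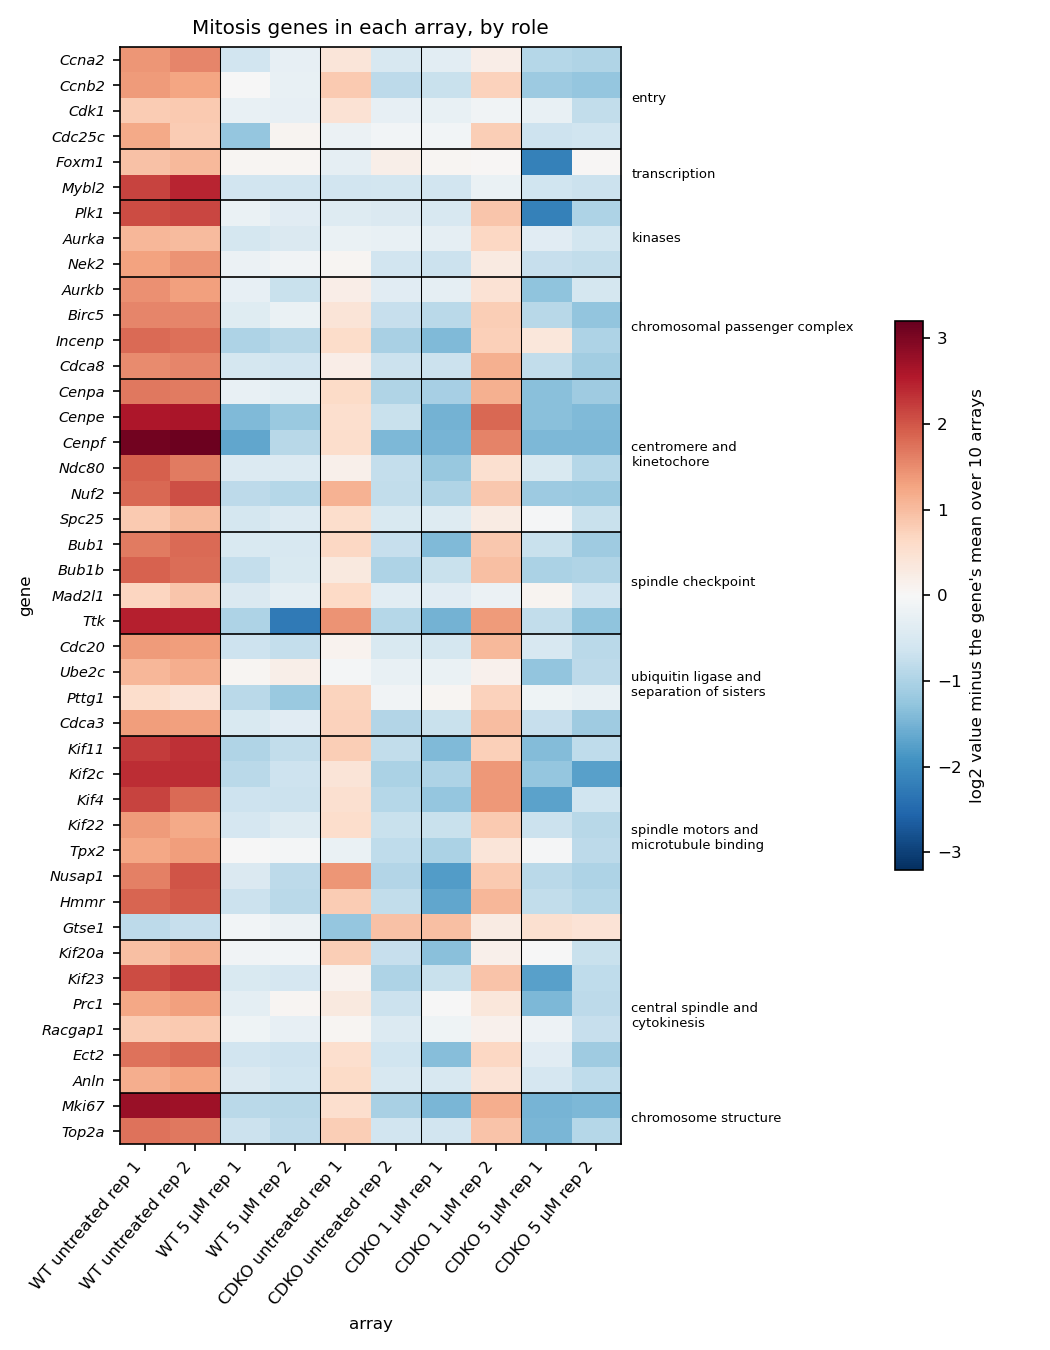
Level of the 43 mitosis genes (lines, grouped by role) on each of the 10 arrays (columns), as the log2 value minus the gene's mean over the 10 arrays, red above and blue below. Both untreated WT arrays are above the mean for all genes but Gtse1, and replicate 1 of untreated CDKO and replicate 2 of CDKO at 1 µM are above their partner arrays for most genes.

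The first comparison was between WT cells with and without 5 µM OHT, which measures the treatment where the title names no Dicer deletion. Mitosis genes were lower with OHT: 19 of 43 members fell and none rose (limma, Benjamini-Hochberg adjusted p under 0.05 over 20681 probe sets), where 5.73% of all tested probe sets, or 4.78% of the tested genes, fell. The median difference was -1.95, against -0.09 over the 10632 tested genes, and 40 members had an unadjusted p under 0.05. In 42 members both treated arrays were lower than both untreated arrays, against 46.8% of tested genes. The 1 exception, Gtse1, was the other way round, as were 36.7% of tested genes. The replicates lay close, with a median SD over the members of 0.06 in untreated WT and 0.09 in treated WT. Treatment and the high 18S control coincide in these 4 arrays and cannot be told apart. Skeletal muscle and epithelial markers moved the same way. Of the muscle markers 5 of 6 tested fell, with differences over the 6 from -4.29 to -1.13. So did 2 of 4 tested epithelial markers, over which they ran from -5.84 to 0.34. Actc1, Myl1, Myh3, Tnni1, Cdh1 and Krt8 reached 4 only in untreated WT, so their differences follow in part from the threshold. The macrophage and leukocyte markers were divided, with 6 positive and 7 negative (median -0.10), and none passed. The 1 tested endothelial marker was higher by 1.03 and did not pass. Of the 12 fibroblast markers 7 were negative and 5 positive (median -0.24), and 1 passed, lower. The part of these markers in the result was not tested. With the 18S value as a covariate, the median difference was -0.95, 0 members passed by limma and 2 had an unadjusted p under 0.05. Without any 1 of the 4 WT arrays only Mybl2 passed, whose other 8 arrays lie at background, without either CDKO 5 µM array 9 passed, without either CDKO 1 µM array 36, and with the 4 WT arrays fitted alone 41 fell and 1 rose. Among the 42 members that reached a group mean of 6, which leaves out Mybl2, 17 fell. The 5.73% belongs to the main fit, and no share of all probe sets is given for these alternative fits.

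**Figure D2:**
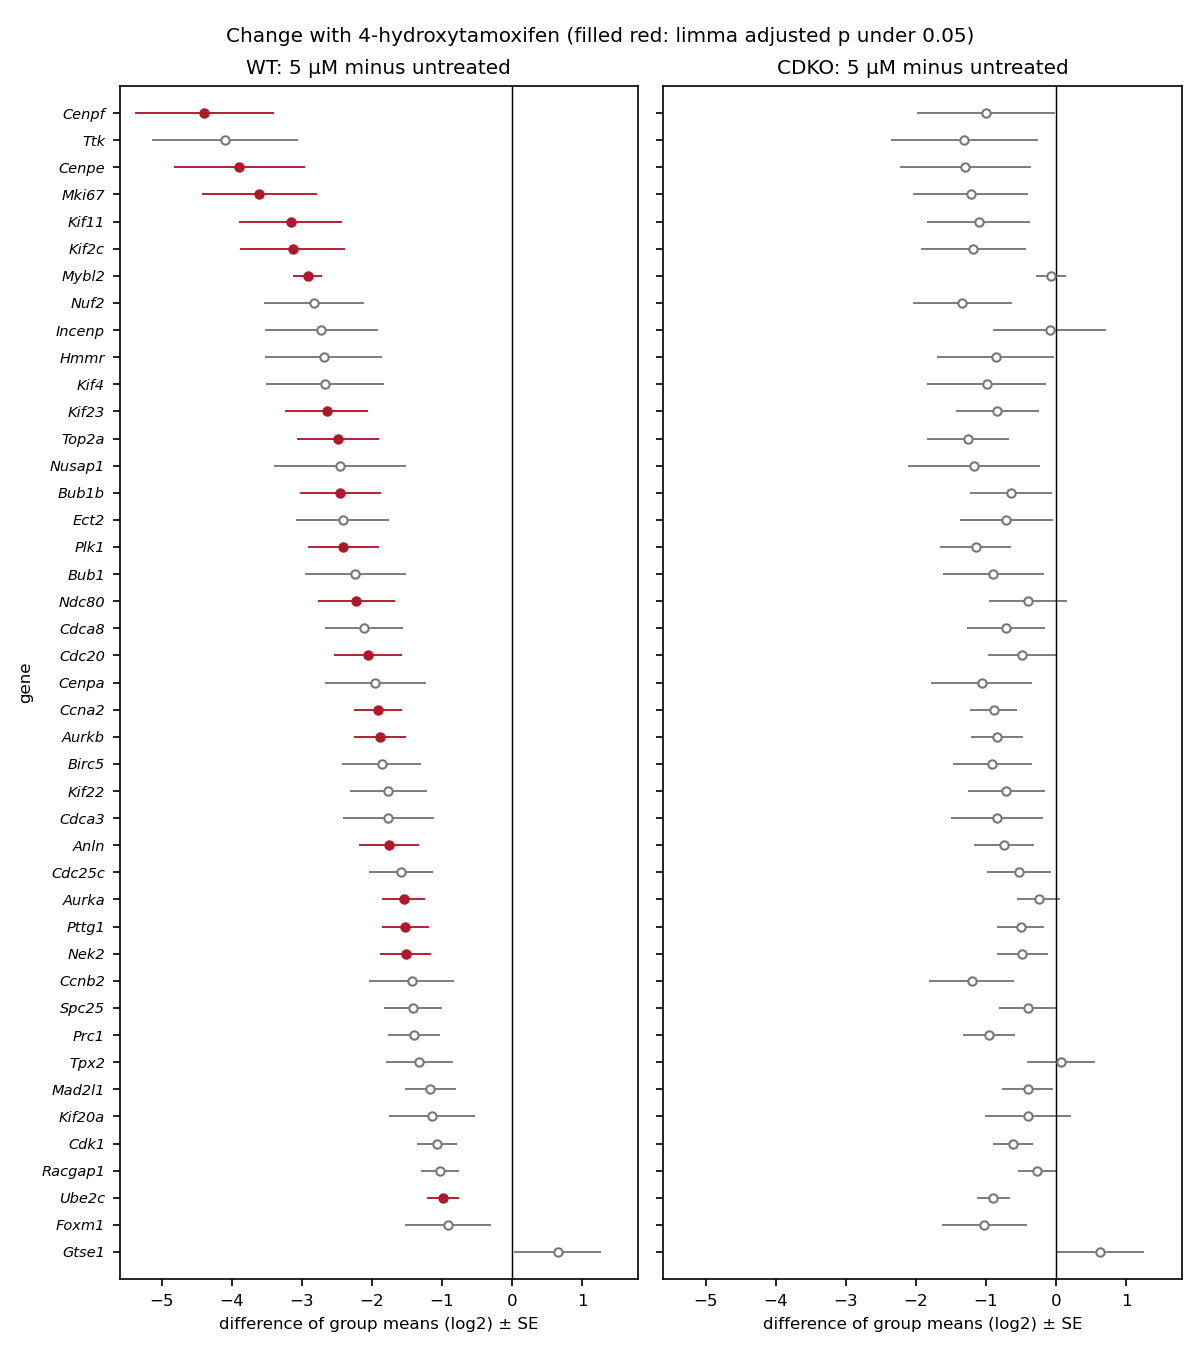
Difference between 5 µM OHT and untreated cells (x axis, log2 ± SE of the model) for each of the 43 mitosis genes (y axis), in WT cells on the left and CDKO cells on the right, with red points where the limma adjusted p was under 0.05. The WT differences run from -4.39 (Cenpf) to 0.65 (Gtse1) and the CDKO differences from -1.33 to 0.63, with no red point among the CDKO differences.

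Of the 4 tested genes of mitotic entry, 1 fell in WT cells and the median difference was -1.51. Ccna2 encodes cyclin A2, which activates Cdk2 and Cdk1 from S phase into early mitosis. It stood at 10.11 and 10.26 in untreated WT, 8.09 and 8.45 in WT at 5 µM, 9.09 and 8.19 in untreated CDKO, 8.36 and 8.92 in CDKO at 1 µM, and 7.79 and 7.73 in CDKO at 5 µM. The untreated WT arrays were the highest of the 10, and the groups of WT did not overlap. The difference in WT was -1.92 ± 0.34 (SE), a 3.77-fold lower signal (limma adjusted p = 0.0199). Cdk1, the kinase that drives mitosis, stood at 11.09 and 11.13 in untreated WT, 10.06 and 10.03 in WT at 5 µM, 10.75 and 10.04 in untreated CDKO, 10.06 and 10.19 in CDKO at 1 µM, and 10.05 and 9.51 in CDKO at 5 µM. Its treated WT arrays lay at the level of the lower CDKO arrays, and the difference of -1.07 ± 0.29 did not pass (adjusted p = 0.0600). Ccnb2, a mitotic cyclin, and Cdc25c, a phosphatase that activates Cdk1, differed by -1.44 ± 0.61 and -1.59 ± 0.46 and did not pass either (adjusted p = 0.160 and 0.0688).

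Of the 2 transcription factors of the mitotic programme, 1 fell in WT cells. Mybl2 encodes B-Myb, which with MuvB activates late cell cycle genes. It stood at 5.09 and 5.37 in untreated WT, 2.31 and 2.32 in WT at 5 µM, 2.31 and 2.36 in untreated CDKO, 2.32 and 2.72 in CDKO at 1 µM, and 2.29 and 2.25 in CDKO at 5 µM. Only untreated WT arrays were above 4, and the other 8 were at the background of the array, so its difference of -2.92 ± 0.21 (adjusted p = 0.000986) is a distance from background, not a ratio of transcript amounts. Foxm1, which binds the same promoters through B-Myb and MuvB, stood at 6.68 and 6.79 in untreated WT, 5.81 and 5.82 in WT at 5 µM, 5.47 and 5.93 in untreated CDKO, 5.80 and 5.79 in CDKO at 1 µM, and 3.57 and 5.79 in CDKO at 5 µM. Its other tested probe sets had the CDKO 5 µM arrays closer together, at 4.15 and 4.85 and at 3.92 and 4.48. On the chosen probe set replicate 1 of CDKO at 5 µM was far below the other 9 arrays and under 4. The WT difference was -0.92 ± 0.61 and did not pass (adjusted p = 0.350), with a spread that the 2 CDKO 5 µM arrays dominate: it passed without either of them, at an adjusted p of 0.0480.

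All 3 mitotic kinases fell in WT cells, with a median difference of -1.55. Plk1, polo-like kinase 1, acts in centrosome maturation, mitotic entry and cytokinesis. It stood at 9.80 and 9.85 in untreated WT, 7.50 and 7.34 in WT at 5 µM, 7.30 and 7.25 in untreated CDKO, 7.21 and 8.61 in CDKO at 1 µM, and 5.54 and 6.72 in CDKO at 5 µM. Untreated WT was highest and CDKO at 5 µM lowest, with no overlap between the WT groups, and the WT difference was -2.41 ± 0.51, a 5.30-fold lower signal (adjusted p = 0.0327). Aurka, Aurora kinase A, which works at the spindle poles, stood at 9.15 and 9.11 in untreated WT, 7.53 and 7.63 in WT at 5 µM, 7.88 and 7.85 in untreated CDKO, 7.81 and 8.75 in CDKO at 1 µM, and 7.74 and 7.50 in CDKO at 5 µM. Replicate 2 of CDKO at 1 µM was the highest array after untreated WT, and the WT difference was -1.55 ± 0.31 (adjusted p = 0.0271). Nek2, a kinase of centrosome separation, differed by -1.52 ± 0.36 (adjusted p = 0.0428).

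Of the 4 subunits of the chromosomal passenger complex, which corrects faulty attachments and acts again in cytokinesis, 1 fell in WT cells and the median difference was -1.99. Aurkb, its kinase Aurora B, stood at 8.67 and 8.52 in untreated WT, 6.93 and 6.49 in WT at 5 µM, 7.40 and 6.82 in untreated CDKO, 6.92 and 7.66 in CDKO at 1 µM, and 5.92 and 6.62 in CDKO at 5 µM. The treated WT arrays lay within the range of the CDKO arrays, and the difference was -1.88 ± 0.37 (adjusted p = 0.0269). Birc5, the subunit survivin, stood at 11.29 and 11.29 in untreated WT, 9.34 and 9.52 in WT at 5 µM, 10.15 and 8.98 in untreated CDKO, 8.85 and 10.51 in CDKO at 1 µM, and 8.85 and 8.46 in CDKO at 5 µM. The WT groups did not overlap, but the difference of -1.86 ± 0.56 did not pass (adjusted p = 0.0779). The scaffold Incenp and the subunit borealin (Cdca8) differed by -2.72 ± 0.80 and -2.11 ± 0.56, with adjusted p of 0.0729 and 0.0574.

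Of the 6 centromere and kinetochore genes, 3 fell in WT cells and the median difference was -2.52. Cenpf, a kinetochore protein that accumulates in G2 phase, had the largest difference of all members. It stood at 9.29 and 9.35 in untreated WT, 4.55 and 5.32 in WT at 5 µM, 6.77 and 4.78 in untreated CDKO, 4.74 and 7.80 in CDKO at 1 µM, and 4.79 and 4.77 in CDKO at 5 µM. Untreated WT was above every other array, and the difference was -4.39 ± 0.99, a 21.0-fold lower signal (adjusted p = 0.0378). Cenpe, the kinetochore motor that moves chromosomes to the spindle equator, differed by -3.89 ± 0.94 (adjusted p = 0.0460) and Ndc80, which binds microtubules at the kinetochore, by -2.22 ± 0.55, which passed narrowly. Nuf2, the partner of Ndc80, differed by -2.82 ± 0.71 at an adjusted p of 0.0509, just on the other side of the threshold, with a treated WT mean under 4. Spc25, of the same Ndc80 complex, stood at 9.78 and 9.95 in untreated WT, 8.39 and 8.51 in WT at 5 µM, 9.50 and 8.46 in untreated CDKO, 8.53 and 9.20 in CDKO at 1 µM, and 8.92 and 8.23 in CDKO at 5 µM. Its groups of WT did not overlap, and its difference of -1.42 ± 0.41 did not pass (adjusted p = 0.0699). Cenpa, the centromeric form of histone H3, differed by -1.95 ± 0.72 (adjusted p = 0.120).

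Of the 4 spindle checkpoint genes, 1 fell in WT cells and the median difference was -2.34. Bub1b encodes BubR1, part of the complex that inhibits APC/C. It stood at 8.58 and 8.48 in untreated WT, 5.94 and 6.23 in WT at 5 µM, 7.01 and 5.71 in untreated CDKO, 5.99 and 7.66 in CDKO at 1 µM, and 5.69 and 5.75 in CDKO at 5 µM. Untreated WT was highest, replicate 2 of CDKO at 1 µM next, and the WT difference was -2.45 ± 0.58 (adjusted p = 0.0436). Mad2l1, which encodes the checkpoint protein Mad2, stood at 10.04 and 10.24 in untreated WT, 8.90 and 9.05 in WT at 5 µM, 10.00 and 9.01 in untreated CDKO, 8.99 and 9.18 in CDKO at 1 µM, and 9.46 and 8.75 in CDKO at 5 µM. Replicate 1 of untreated CDKO was close to untreated WT, and the WT difference of -1.17 ± 0.37 did not pass (adjusted p = 0.0840). The checkpoint kinase Ttk (Mps1) had the second largest difference of the 43, -4.09 ± 1.04, and did not pass (adjusted p = 0.0522). Its treated WT mean was under 4. Bub1, another checkpoint kinase, differed by -2.24 ± 0.72 (adjusted p = 0.0892).

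Of the 4 genes of the ubiquitin step and sister separation, 3 fell in WT cells and the median difference was -1.64. Cdc20, the activator of APC/C, stood at 12.05 and 12.02 in untreated WT, 10.03 and 9.94 in WT at 5 µM, 10.80 and 10.19 in untreated CDKO, 10.13 and 11.73 in CDKO at 1 µM, and 10.18 and 9.84 in CDKO at 5 µM. The 2 untreated WT arrays were highest, and replicate 2 of CDKO at 1 µM was close behind. The WT difference was -2.05 ± 0.48, a 4.15-fold lower signal (adjusted p = 0.0429). Pttg1 encodes securin, which holds separase inactive until APC/C destroys it. It stood at 11.62 and 11.49 in untreated WT, 10.18 and 9.88 in WT at 5 µM, 11.78 and 10.95 in untreated CDKO, 11.12 and 11.80 in CDKO at 1 µM, and 10.92 and 10.81 in CDKO at 5 µM. On this probe set the treated WT arrays, not those of CDKO at 5 µM, were the lowest of the 10, and 2 CDKO arrays were above untreated WT. A second tested Pttg1 probe set did not show that order. It stood at 9.42 and 9.21 in WT at 5 µM and at 9.74 and 8.95 in CDKO at 5 µM. The WT difference was -1.52 ± 0.34 on the chosen probe set (adjusted p = 0.0363). On the second it was -0.66 and did not pass (limma adjusted p = 0.201). Ube2c, the ubiquitin-conjugating enzyme that works with APC/C, differed by -0.99 ± 0.23 (adjusted p = 0.0429), and Cdca3, a substrate of APC/C, by -1.76 ± 0.65 (adjusted p = 0.120).

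Of the 8 spindle motors and microtubule binding genes, 2 fell in WT cells and the median difference was -2.56. Kif11, the motor Eg5 that pushes the spindle poles apart, stood at 7.72 and 7.81 in untreated WT, 4.52 and 4.69 in WT at 5 µM, 6.28 and 4.69 in untreated CDKO, 4.07 and 6.23 in CDKO at 1 µM, and 4.10 and 4.66 in CDKO at 5 µM. Untreated WT was highest, 4 CDKO arrays lay at or below 4.7 with treated WT, and the difference was -3.16 ± 0.73 (adjusted p = 0.0415). Kif2c, the microtubule depolymerase MCAK, fell by a similar size, -3.13 ± 0.75 (adjusted p = 0.0445). Kif22, a chromosome-arm motor, stood at 10.88 and 10.74 in untreated WT, 8.98 and 9.11 in WT at 5 µM, 10.07 and 8.80 in untreated CDKO, 8.82 and 10.37 in CDKO at 1 µM, and 8.83 and 8.63 in CDKO at 5 µM. Its difference of -1.77 ± 0.55 did not pass (adjusted p = 0.0828). Kif4, Nusap1, Hmmr and Tpx2, a chromosome motor and 3 microtubule-binding proteins, differed by -2.67 ± 0.85, -2.46 ± 0.94, -2.69 ± 0.84 and -1.32 ± 0.48, with adjusted p of 0.0854, 0.129, 0.0818 and 0.116.

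Gtse1, a microtubule-binding protein of G2 phase that also restrains p53, had the opposite sign. It stood at 7.77 and 7.88 in untreated WT, 8.52 and 8.43 in WT at 5 µM, 7.36 and 9.54 in untreated CDKO, 9.56 and 8.87 in CDKO at 1 µM, and 9.13 and 9.04 in CDKO at 5 µM. The untreated WT arrays were lower than both treated WT arrays, and only replicate 1 of untreated CDKO was lower still. The WT difference of 0.65 ± 0.62 did not pass with the pooled spread (adjusted p = 0.518), and it was the 1 member called higher with the 4 WT arrays fitted alone. It had a single tested probe set. Its promoter held matches to CCAAT and to TTTAAA and none to TTTGAA. Of the matched members 27.0% had TTTAAA and 70.3% had TTTGAA.

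Of the 6 genes of the central spindle and cytokinesis, 2 fell in WT cells and the median difference was -1.58. Kif23, the motor of the centralspindlin complex, stood at 10.28 and 10.40 in untreated WT, 7.71 and 7.68 in WT at 5 µM, 8.32 and 7.21 in untreated CDKO, 7.48 and 9.11 in CDKO at 1 µM, and 6.46 and 7.39 in CDKO at 5 µM. Untreated WT was at least 1 unit above every other array, and the difference was -2.65 ± 0.59, a 6.26-fold lower signal (adjusted p = 0.0373). Anln, the contractile ring protein anillin, stood at 10.80 and 10.88 in untreated WT, 9.16 and 8.99 in WT at 5 µM, 10.25 and 9.11 in untreated CDKO, 9.12 and 10.05 in CDKO at 1 µM, and 9.08 and 8.80 in CDKO at 5 µM. The treated WT arrays lay within the CDKO range, and the difference was -1.76 ± 0.43 (adjusted p = 0.0459). Racgap1, the partner of Kif23, Ect2, which activates RhoA at the furrow, Prc1, which bundles central spindle microtubules, and Kif20a, a motor that brings kinases there, differed by -1.03 ± 0.27, -2.42 ± 0.66, -1.40 ± 0.37 and -1.14 ± 0.61. Their adjusted p were 0.0570, 0.0619, 0.0570 and 0.253.

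Both genes of chromosome structure fell in WT cells. Mki67 encodes Ki-67, the coat protein of mitotic chromosomes and the usual marker of cycling cells. It stood at 11.80 and 11.74 in untreated WT, 8.18 and 8.15 in WT at 5 µM, 9.57 and 8.0 in untreated CDKO, 7.56 and 10.21 in CDKO at 1 µM, and 7.54 and 7.61 in CDKO at 5 µM. Untreated WT was highest by more than 1 unit, treated WT lay with the lower CDKO arrays, and the WT difference was -3.61 ± 0.82, a 12.2-fold lower signal (adjusted p = 0.0390). Top2a, topoisomerase II alpha, which untangles sister chromatids, differed by -2.48 ± 0.58 (adjusted p = 0.0428).

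**Figure D3:**
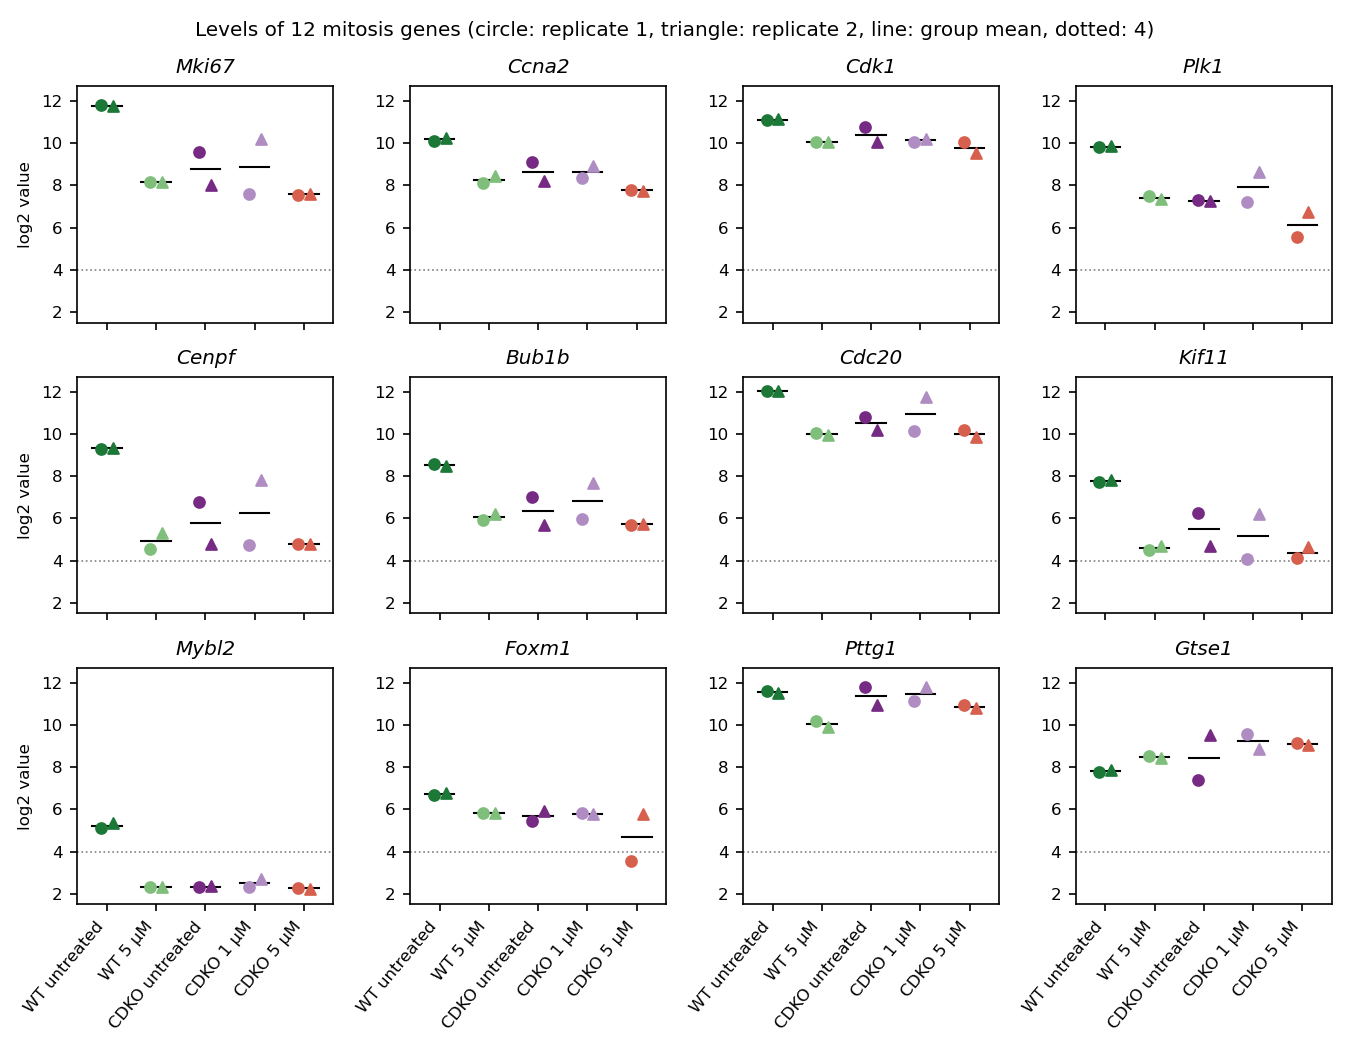
Log2 value (y axis) of 12 mitosis genes in the 5 groups (x axis), with a circle for replicate 1, a triangle for replicate 2, a line at the group mean and a dotted line at 4. The 2 replicates nearly coincide in both WT groups, while in untreated CDKO and in CDKO at 1 µM they lie apart, for Cenpf at 6.77 and 4.78 and at 4.74 and 7.80.

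The replicates lay far apart in 2 of the 3 CDKO groups. In untreated CDKO, replicate 1 was higher than replicate 2 in 39 of 43 members, by more than 1 unit in 24, with a median gap of 1.13, against 0.10 over all tested genes, of which 9.27% were higher by more than 1. In CDKO at 1 µM it was replicate 2 that was higher, in 41 members and by more than 1 unit in 27, and the median of replicate 1 minus replicate 2 was -1.55, against -0.27 over all genes, of which 15.4% had replicate 2 higher by more than 1. The 2 arrays at 5 µM were closer, with a median gap of 0.11. The median SD of the members was 0.82 without OHT, 1.09 at 1 µM and 0.28 at 5 µM, where that of all tested genes was 0.30, 0.32 and 0.28.

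The size of the gap differed between members, and no role was compared with another. At 1 µM it was widest in Cenpe (3.33), Cenpf (3.06), Ttk (2.88), Hmmr (2.71) and Mki67 (2.64), and it was 0.19 in Mad2l1. In untreated CDKO it was 2.35 in Nusap1, 2.33 in Ttk, 1.99 in Cenpf and 1.91 in Nuf2. Cdc25c, Foxm1, Mybl2 and Gtse1 were the 4 members without the higher value in replicate 1 of untreated CDKO, and replicate 1 minus replicate 2 was -2.17 for Gtse1. At 5 µM the widest gap was that of Foxm1, at -2.21 for replicate 1 minus replicate 2. Replicate 2 of CDKO at 1 µM was also the CDKO array with the raised 18S control and Gapdh difference. In untreated CDKO the lower replicate 2 had the higher 18S value (8.44 against 6.87), and its spike-in controls were in the lower class. The part of these controls in the gaps was not tested.

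**Figure D4:**
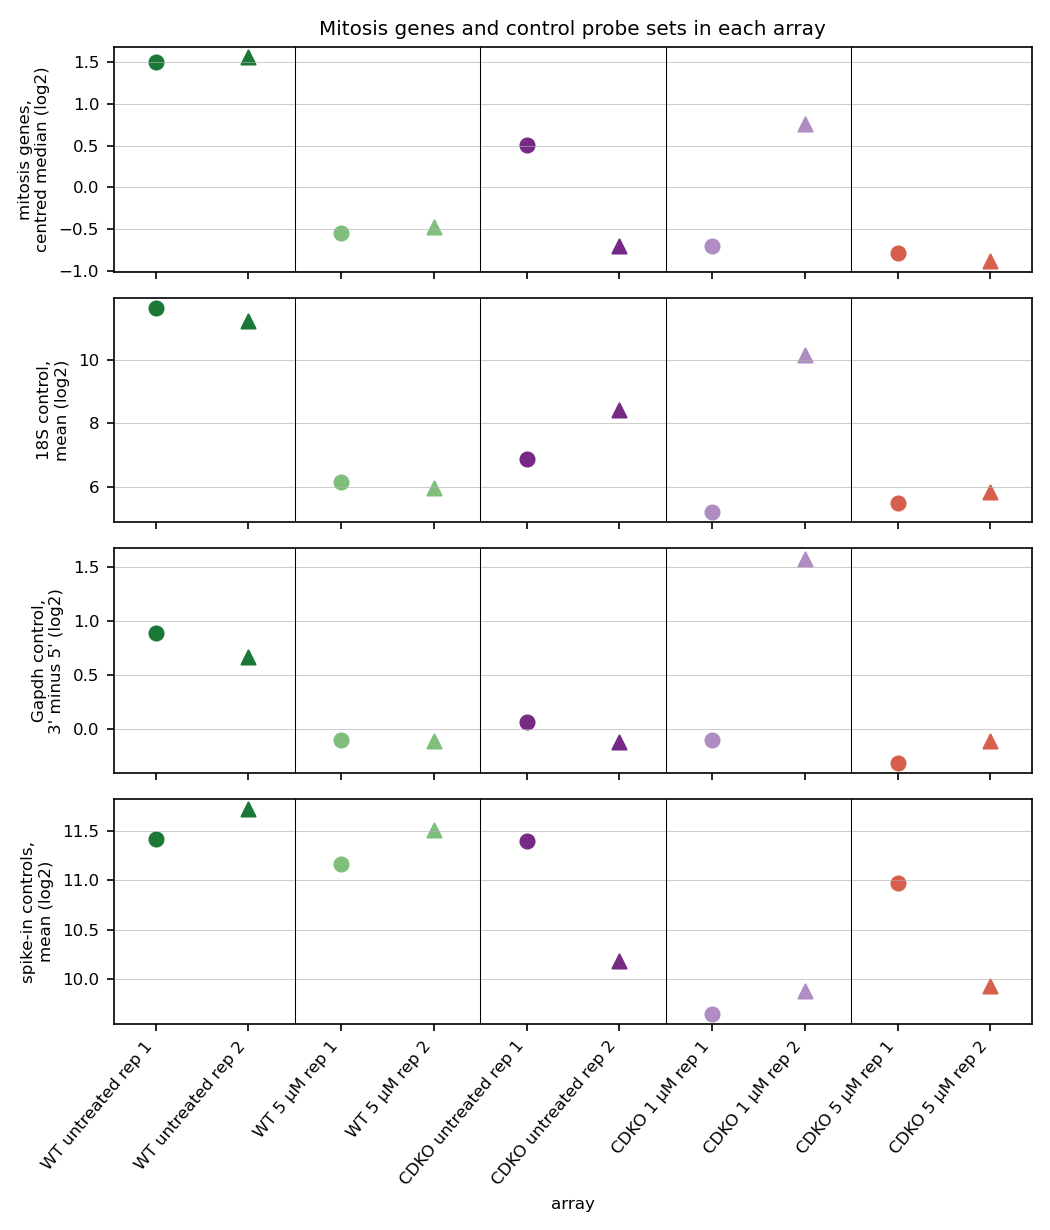
For each of the 10 arrays (x axis), from top to bottom: the median over the 43 mitosis genes of the log2 value minus the gene's mean, the mean 18S ribosomal RNA control, the 3′ minus 5′ difference of the Gapdh control, and the mean of the spike-in controls, all in log2. The mitosis median is 1.51 and 1.56 in untreated WT, 0.51 in replicate 1 of untreated CDKO and 0.76 in replicate 2 of CDKO at 1 µM, and -0.48 to -0.89 on the other 6 arrays.

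The comparison of CDKO cells at 5 µM with untreated CDKO cells asks what OHT does in the line with the conditional allele. No mitosis gene passed (limma, 0 of 43 members, against 0.145% of all tested probe sets in either direction), and 3 had an unadjusted p under 0.05. Of the 43 differences 41 were negative, with a median of -0.84, against -0.01 over all tested genes. The fibroblast markers were lower too, with 10 of 12 differences negative, a median of -0.65 and 2 at an unadjusted p under 0.05, all short of the threshold. Their part was not tested. In 23 members both 5 µM arrays were lower than both untreated arrays, against 13.2% of tested genes. None were the other way round, against 14.4% of tested genes. The 3 members with an unadjusted p under 0.05 were Ube2c at -0.89 ± 0.23 (adjusted p = 0.257), Ccna2 at -0.89 ± 0.34 (adjusted p = 0.483) and Prc1 at -0.95 ± 0.37 (adjusted p = 0.489). They were chosen for this after their values were seen. By role, the median difference ran from -0.48 in the kinases to -1.24 in chromosome structure. Only Gtse1 at 0.63 ± 0.62 and Tpx2 at 0.07 ± 0.48 were positive.

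Which untreated array served as the base set the size of that median. It was -1.29 without replicate 2 of untreated CDKO and -0.23 without replicate 1. Within the spike-in classes, which pair the arrays by class, the median was -1.31 in the higher class (41 of 43 negative) and -0.26 in the lower class (38 of 43 negative), against -0.04 and 0.04 over all tested genes. Without replicate 2 of CDKO at 5 µM, the Foxm1 difference was -2.13, through the value of replicate 1, which at 3.57 lies in the background.

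At 1 µM no member passed against untreated CDKO (limma, 0 of 43, with 0 at an unadjusted p under 0.05), and 0% of all probe sets did. The differences ran from -0.72 to 0.77 around a median of 0.11, with 28 positive and 15 negative. No member had both 1 µM arrays lower than both untreated arrays, against 11.2% of tested genes. Only 1, Cdc25c, had both higher, against 11.1% of tested genes. The median turned from -0.56 without replicate 2 of the 1 µM group to 0.84 without replicate 1, so it had no direction. The 5 µM group against the 1 µM group gave 0 of 43 members passing with limma, against 0.169% of all probe sets, with 5 at an unadjusted p under 0.05 and a median of -0.92. Of the fibroblast markers 10 of 12 were negative here as well (median -0.80), while all 13 tested macrophage and leukocyte markers were positive (median 1.15). None of them passed, and their part was not tested. In 24 members both 5 µM arrays were lower than both 1 µM arrays, as in 15.8% of tested genes. The median ranged from -1.63 without replicate 1 of the 1 µM group to -0.18 without its replicate 2.

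Untreated CDKO cells had lower mitosis gene levels than untreated WT cells. Of 43 members 6 were lower by the test and none higher (limma adjusted p under 0.05), where 4.28% of all probe sets, or 2.64% of tested genes, were lower, and 32 had an unadjusted p under 0.05. The median difference was -1.65, against -0.05 over all tested genes. In 41 members both CDKO arrays were lower than both WT arrays, as in 31.6% of tested genes, with the exceptions of Gtse1 and Pttg1. This comparison shares its untreated WT arrays with that of the WT treatment. Its 6 genes were Ccna2 (-1.54 ± 0.34), Mybl2 (-2.90 ± 0.21), Plk1 (-2.55 ± 0.51), Nek2 (-1.65 ± 0.36), Ube2c (-1.27 ± 0.23) and Kif23 (-2.58 ± 0.59), with adjusted p from 8.85e-04 to 0.0464. Mybl2 was kept only through untreated WT, so its difference follows in part from the threshold, and 4 members passed of the 42 that reached a group mean of 6. Skeletal muscle and epithelial markers were also lower. Of those tested, 5 of 6 for muscle (median -3.11) and 2 of 4 for epithelium (median -2.85) passed. Actc1, Myl1, Myh3, Tnni1, Cdh1 and Krt8 reached 4 only in untreated WT, so their differences follow in part from the threshold. The 1 tested endothelial marker was higher and passed, at 1.86. All 13 tested macrophage and leukocyte markers were negative (median -1.58), 8 at an unadjusted p under 0.05 and none past the threshold. Their part was not tested. Line and 18S control differ together here, since both WT arrays were above 11 and the CDKO arrays at 6.87 and 8.44. With the 18S covariate only Mybl2 passed and the median was -0.81. The 4.28% belongs to the main fit and gives no share for this fit or those that follow. Only Mybl2 passed also without replicate 2 of untreated CDKO or without any 1 of the 4 WT arrays, 4 passed without either CDKO 5 µM array and 26 without either CDKO 1 µM array, and the median was -2.28 without replicate 1 of untreated CDKO. In that last fit 5 passed, of which Gtse1 was higher, at 1.71.

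Treated with 5 µM OHT, the lines stood close to each other. None of the 43 members passed between CDKO and WT at 5 µM (limma), against 1.8% of all probe sets in either direction, and 4 had an unadjusted p under 0.05. The pooled spread is too large for these groups, whose median SD was 0.28 and 0.09, so differences could be missed. The median difference was -0.30, and 0.04 over all tested genes, with 35 members negative. Of the macrophage and leukocyte markers 12 of 13 were negative (median -1.50), 5 at an unadjusted p under 0.05 and none past the threshold. Of the fibroblast markers 8 of 12 were negative (median -0.54), with 0 at an unadjusted p under 0.05. The part of both lists was not tested. In 22 members both CDKO arrays were lower than both WT arrays, a share above the 24.3% of tested genes that were. In 2 they were higher, against 30.6% of tested genes. Ube2c had the lowest adjusted p, with a difference of -1.17 ± 0.23 (adjusted p = 0.0591); it stood at 8.37 and 8.81 in CDKO and at 9.71 and 9.82 in WT. Ube2c passed with quantile normalization, median centring, array weights or the spike-in class in the model, at -1.17 to -1.31, and without either CDKO 1 µM array. Without replicate 2 of CDKO at 5 µM, Foxm1 was the member that passed. Plk1 (-1.29 ± 0.51) and Prc1 (-1.01 ± 0.37) were the other negative differences with an unadjusted p under 0.05. The positive one was Pttg1 (0.83 ± 0.34), whose second probe set stood at 9.74 and 8.95 in CDKO and 9.42 and 9.21 in WT. With the spike-in class in the model, the median over the members was 0.01.

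The response to 5 µM OHT was then compared between the lines, as the CDKO difference minus the WT difference. Of 43 members 1, Mybl2, passed (0.348% of all probe sets passed in either direction), and 3 had an unadjusted p under 0.05. The value was positive in 41 members with a median of 1.26, against 0.09 over all tested genes, and it passed for none of the other 42. The value for Mybl2 was 2.85. Both untreated CDKO arrays had Mybl2 under 4, where a fall cannot be measured, and the gene was kept only through untreated WT. Its value is therefore no measure of how the 2 lines differ in response. Among the 42 members that reached a group mean of 6, which leaves out Mybl2, 0 passed by limma and 2 had an unadjusted p under 0.05. Skeletal muscle and epithelial markers had values of the same sign, with 4 of 6 tested (median 2.98) and 2 of 4 tested (median 3.16) passing. Fibroblast markers were 5 positive and 7 negative, and macrophage and leukocyte markers 8 positive and 5 negative. The 1 tested endothelial marker was negative, at -1.92, and none of these 3 lists had a marker that passed. All but 2 of the 8 listed muscle markers and 2 of the 5 epithelial markers were under 4 outside untreated WT, and their part was not tested. With the 18S covariate 0 members passed and 1 had an unadjusted p under 0.05. Mybl2 did not pass without either untreated CDKO array, replicate 1 of CDKO at 5 µM, replicate 2 of untreated WT or either WT 5 µM array.

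The series sets the 4 treated CDKO arrays against the 6 arrays of the other 3 groups. In that comparison 2 of 43 members were lower (limma adjusted p under 0.05), and 2.88% of all probe sets were, with 14 members at an unadjusted p under 0.05 and a median of -0.84, against 0.02 over all tested genes. Of other cell types, 5 of 6 tested skeletal muscle markers (median -1.11) and 2 of 4 epithelial markers (median -0.75) were called lower. So were 2 of 13 for macrophages and leukocytes (median -1.44). Actc1, Myl1, Myh3, Tnni1, Cdh1 and Krt8 reached 4 only in untreated WT, so their differences follow in part from the threshold. The part of the markers was not tested. The 2 members were Mybl2 (-0.90 ± 0.14, adjusted p = 0.0180) and Ube2c (-0.91 ± 0.15, adjusted p = 0.0238). For Mybl2, untreated CDKO and treated WT, which belong to the controls, were as low as treated CDKO, so this difference rests on untreated WT. Ube2c stood at 9.42 and 9.78 at 1 µM and 8.37 and 8.81 at 5 µM, against 9.40 to 10.79 in the controls, so that the 1 µM arrays overlapped the controls and the 5 µM arrays did not. The 3 control groups differed widely from each other, and 0 members passed with the 18S covariate, array weights or the spike-in class in the model. Without replicate 2 of CDKO at 1 µM 10 members were lower. Mybl2 alone passed without replicate 1 of untreated CDKO, of CDKO at 5 µM or of untreated WT. Without replicate 2 of untreated CDKO 5 passed, of which 4 were lower and Gtse1 was higher, and without replicate 2 of untreated WT or either WT 5 µM array 0 did.

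Across the 5 groups, untreated WT had the highest mean in 42 of 43 members, and in Gtse1 the lowest. CDKO at 5 µM was lowest in 33 members and WT at 5 µM in 7. Second place went to CDKO at 1 µM in 23 members and to untreated CDKO in 15. The median level over the members was 9.51 in untreated WT, 8.15 in CDKO at 1 µM, 7.87 in untreated CDKO, 7.58 in WT at 5 µM and 7.13 in CDKO at 5 µM. Among the 4 lower groups no member passed in the 4 comparisons made, and WT at 5 µM was not tested against untreated CDKO or CDKO at 1 µM. Single CDKO arrays spread over this range: replicate 2 at 1 µM was above both WT 5 µM arrays in 41 of 43 members and replicate 1 of untreated CDKO in 36, against 3 to 10 for the other 4 CDKO arrays. All 6 CDKO arrays were below both untreated WT arrays in 41 or 42 members.

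A gene can have several probe sets, which measure it separately. For 21 members 29 further probe sets were tested, and 28 had the sign of the chosen probe set in the WT comparison, of which 15 passed, all lower. Among the 15 were probe sets of Foxm1, Incenp, Prc1, Cenpa and Hmmr, whose chosen probe sets did not pass. The Cenpa probe set had a group mean of 4 or more only in untreated WT. So had 1 passing probe set each of Incenp, Kif11 and Cdc20, and the differences of all these follow in part from the threshold. In untreated CDKO against untreated WT 28 had the same sign and 10 passed (limma), all lower. The 10 include the same probe sets of Cenpa, Incenp, Kif11 and Cdc20, kept only through untreated WT. In CDKO at 5 µM against untreated CDKO 28 had the same sign and none passed (limma). The exception in the WT comparison was a probe set of Hmmr at 1.25, with an adjusted p of 0.0577. Of the 43 chosen probe sets, 5 carry the suffix _x_at (among them those of Aurkb, Incenp, Cdc20, Kif22 and Kif2c) and 3 the suffix _s_at, by which the manufacturer marks probe sets that may also match other transcripts.

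Of 82 further mitosis genes, listed by function, 77 were tested. In WT cells 31 fell and 1 rose with OHT (limma adjusted p under 0.05), where 4.78% of the tested genes fell, with a median difference of -1.72. The largest falls were those of Aspm, a spindle pole protein (-4.42 ± 1.07), Cit, citron kinase of the late furrow (-3.71 ± 0.75), Haspin, the histone H3 kinase of mitosis (-3.22 ± 0.44), and Iqgap3, a scaffold protein (-3.11 ± 0.73). All 4 had a treated mean under 4, so these differences reach into the background. The exception was Psrc1, a microtubule-binding protein: it stood at 9.64 and 9.51 in untreated WT, 10.67 and 10.55 in WT at 5 µM, and 10.46 to 10.96 in the 6 CDKO arrays. Its difference was 1.04 ± 0.24 (limma adjusted p = 0.0392). Some of the 77, such as Knl1 and Depdc1b, were kept only through untreated WT, so their differences follow in part from the threshold. Among the 68 that reached a group mean of 6, 27 fell and 1 rose. Without any 1 of the 4 WT arrays 2 or 3 of the 77 passed, all lower, without either CDKO 5 µM array 19 fell, and with the 18S covariate 0 did.

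Between the untreated lines, genes kept only through untreated WT, such as Knl1 and Depdc1b, differ in part through the threshold. Of the 68 that reached a group mean of 6, 10 were lower in CDKO and 1 was higher. Of all 77, 15 were lower in CDKO, where 2.64% of the tested genes were lower. The 1 higher was Psrc1 (1.14 ± 0.24), and the median was -1.43. The lower genes numbered 4 without replicate 2 of untreated CDKO, 9 without either CDKO 5 µM array and 35 without either CDKO 1 µM array. Without any 1 WT array 2 to 5 were lower, and with the 18S covariate 2. In CDKO at 5 µM against untreated CDKO none of the 77 passed with limma, 6 had an unadjusted p under 0.05, all lower, and the median was -0.39. Treated CDKO against the 3 control groups gave 3 lower genes of 77, and 2 of the 68 that reached a group mean of 6. Of all probe sets 2.88% were lower. The 3 were Knl1, Ncapg2 and Cks2, of which Knl1 was above 4 only in untreated WT, on which its difference rests. None passed with array weights, with the spike-in class in the model or without either WT 5 µM array, and 1 did with the 18S covariate, without either untreated WT array, without either CDKO 5 µM array or without replicate 1 of untreated CDKO. Without replicate 2 of untreated CDKO 7 passed, 10 without replicate 2 of CDKO at 1 µM, and 5 with median centring.

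The regulators of these promoters were listed as well. Of 14 listed genes of the DREAM complex and the E2F family 13 were tested, and none passed in any of the 8 comparisons (limma). In WT cells the median difference was 0.07, with 7 positive and 6 negative, and 3 had an unadjusted p under 0.05, all lower. The largest differences were those of the pocket protein p107 (Rbl1, -1.61 ± 0.60, adjusted p = 0.122) and the MuvB subunit Lin54 (-1.49 ± 0.42, adjusted p = 0.0642). The pocket protein p130 (Rbl2), at 0.23 ± 0.32, and E2f1, at 0.32 ± 0.34, lay within their errors.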

How the data were processed

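Total RNA of 10 MEF samples was hybridised to Affymetrix arrays. The log2 values used are the authors' deposited values. The submitters' processing notes name GCRMA without a version. The log2 scale was read from the values (1.09 to 16.0, array medians 3.03 to 3.16). No chip definition or filter is stated in these sources. Of 45101 probe sets, 34958 had 1 gene symbol, 932 several and 9211 none. Symbols were updated through Entrez ID to RefSeq.

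With 64 control probe sets left out, 20681 with a highest group mean of 4 or more were fitted with limma 3.58.1 in R 4.3.3 (lmFit, eBayes, 5 group means, 10 arrays, 5 residual degrees of freedom), with Benjamini-Hochberg adjusted p under 0.05 over all of them. The spread was pooled, although CDKO replicates scattered more than WT replicates, so it is too large for WT and too small for CDKO comparisons. The 10 arrays limit the precision. The script was checked on simulated data in which each probe set had the same spread in all 5 groups. This differs from the measured arrays, so the check does not bear on the pooled spread.

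Alternatives changed the filter, normalization, array weights, blocks, arrays used and probe set; the 18S covariate and median centring were added after seeing the data. Values on every array are given for the member of each role with the highest mean, the one with the largest WT difference that passed, Foxm1, Mybl2, Mki67 and members of opposite sign. The members, the lists of other genes and this rule were chosen with earlier results of these data known.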

Additional observations from a re-analysis of the deposited data

Results flagged for a closer look

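For 3 genes the CDKO difference minus the WT difference at 5 µM OHT passed in the limma fit, but all 3 were above background only in untreated WT, so the values are no measure of how the lines differ in response. They were 2.85 on the log2 scale for Mybl2 and, among the further mitosis genes, 2.22 for Depdc1b and 2.86 for Knl1, a kinetochore scaffold. Depdc1b stood at 4.93 and 5.16 in untreated WT and at 2.64 to 3.78 on the other 8 arrays. Knl1 stood at 5.65 and 6.07 in untreated WT and at 2.77 to 3.0 elsewhere. All 3 passed the level threshold of 4 only through untreated WT, from which the difference follows in part, and were under 4 in untreated CDKO, where a fall cannot be measured.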

How the results depend on the processing

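The counts below are of the 43 mitosis genes that passed limma, and no called gene changed sign under any alternative. The share of all probe sets that passed is given for the main fit only. Counts under the alternatives cannot be set against it. For WT at 5 µM against untreated (19), 2 passed with no filter, 43 with array weights, 42 with the compared groups alone, 0 with the 18S covariate, and 1 to 36 when 1 array was left out. For untreated CDKO against untreated WT (6), 2 passed with no filter, 19 with array weights, 3 with the spike-in block, 2 with the compared groups alone, 1 with the 18S covariate, and 1 to 26 when 1 array was left out. For treated CDKO against the 3 control groups (2), 1 passed with a group mean of 6 or more, 0 with array weights, 0 with the spike-in block, 0 with the 18S covariate, and 0 to 10 when 1 array was left out; the compared groups alone are all 10 arrays. For the difference between the lines (1), 0 passed with a group mean of 6 or more, 0 with the 18S covariate and 0 to 1 when 1 array was left out. For CDKO against WT at 5 µM (0), 1 passed with quantile normalization, array weights, the spike-in block or median centring, and 0 to 1 when 1 array was left out. CDKO at 5 µM gave 0 to 1 against untreated and 0 to 8 against 1 µM when 1 array was left out, and 0 otherwise. CDKO at 1 µM against untreated gave 0 throughout.

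The titles number the arrays in every group, but the differences between replicates 1 and 2 correlated between groups at -0.45 to 0.43, so the numbers were not treated as pairs. With the replicate block 5 members passed in the WT comparison and 3 in untreated CDKO against WT, and the other counts did not change. Of the 19 genes of the WT comparison only Mybl2 passed whichever array was left out, and this says nothing of stability, since it was kept only through untreated WT and lies at background on the other 8 arrays. When 1 array is left out, its partner is assumed to vary like the other groups. Signals under 4 lie in the background, which limits Mybl2, Nuf2 and Ttk, and Foxm1 in replicate 1 of CDKO at 5 µM.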
